A study of Mus musculus with 4 samples.

Results

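The genes described here are 4 ligands of the bone morphogenetic protein (BMP) family, Bmp2, Bmp4, Bmp5 and Bmp7, and 5 transcriptional regulators that BMP signalling is known to induce, Id1, Id2, Id3, Msx1 and Msx2. They were chosen by name and not by a rule on their levels, though earlier results of these data were known. All 9 were found in each of the count tables, which listed 16639 genes at the first stage, 16341 at the second and 18640 at the third, and 19616 genes in all.

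Single-cell transcriptomes were collected from mouse embryos at 3 stages: mid-streak to late streak (MS-LS, dissected at E6+21h), no bud to early bud (OB-EB, E7+3h) and early head fold (EHF, E7+14h). All 3 groups carried TnEGP-CreERT2/+ together with R26Rtdtomato/R26Rtdtomato, so that an inducible Cre recombinase was made in cells expressing T, a gene of the primitive streak, and a red reporter was switched on by tamoxifen. Tamoxifen was given by oral gavage at 0.08 mg/bw, at E6+5h for the MS-LS embryos, at E6+21h for the OB-EB embryos and at E7+7h for the EHF embryos, and no group went without it. Each stage was 1 library made from a pool of embryos, so a difference between stages and a difference between libraries cannot be told apart. The EHF library was deposited under a pair of sample names with no count differing between them, and it was counted as 1 sample.

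BMP ligands are secreted dimers that bind paired type I and type II receptors, which phosphorylate Smad1, Smad5 and Smad9. These enter the nucleus with Smad4 and switch on targets that include the Id and Msx genes. Id proteins lack a DNA-binding domain and hold back basic helix-loop-helix factors by pairing with their E protein partners, whereas Msx1 and Msx2 are homeodomain repressors. In the gastrulating mouse embryo, Bmp4 from the extraembryonic ectoderm is known for its part in forming extraembryonic mesoderm and germ cells, and BMP signals at later stages are known for their part in specifying the heart.

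RefSeq gave the 250 bases before the start of 6 of the 9 genes on GRCm38.p6. Those of the Id and Msx targets are shown because these are the genes that the Smad complex acts on. Capitals mark GGCGCC, the GC-rich palindrome bound by Smad1 and Smad5, and GTCT or its complement AGAC, the short Smad-binding element. Both strands were searched and the motifs do not overlap each other. The windows are chr12:25096093-25096342 (minus strand) for Id2, chr4:136143572-136143821 (plus strand) for Id3, chr5:37824586-37824835 (minus strand) for Msx1 and chr13:53472781-53473030 (minus strand) for Msx2, and each is written 5′ to 3′ along its gene.
Id2: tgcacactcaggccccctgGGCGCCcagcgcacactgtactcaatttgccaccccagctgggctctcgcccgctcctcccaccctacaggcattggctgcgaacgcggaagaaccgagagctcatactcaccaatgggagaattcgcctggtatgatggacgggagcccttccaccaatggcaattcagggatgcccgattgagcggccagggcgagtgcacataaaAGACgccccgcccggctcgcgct
Id3: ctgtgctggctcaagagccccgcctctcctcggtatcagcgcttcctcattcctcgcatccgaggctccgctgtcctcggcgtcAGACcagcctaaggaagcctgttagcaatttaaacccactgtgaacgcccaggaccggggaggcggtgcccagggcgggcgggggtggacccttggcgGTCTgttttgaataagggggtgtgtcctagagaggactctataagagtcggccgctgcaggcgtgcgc
Msx1: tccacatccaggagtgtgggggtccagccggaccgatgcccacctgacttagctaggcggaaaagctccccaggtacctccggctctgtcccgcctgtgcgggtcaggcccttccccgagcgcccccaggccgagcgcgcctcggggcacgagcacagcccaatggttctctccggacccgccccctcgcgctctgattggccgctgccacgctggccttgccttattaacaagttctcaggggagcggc
Msx2: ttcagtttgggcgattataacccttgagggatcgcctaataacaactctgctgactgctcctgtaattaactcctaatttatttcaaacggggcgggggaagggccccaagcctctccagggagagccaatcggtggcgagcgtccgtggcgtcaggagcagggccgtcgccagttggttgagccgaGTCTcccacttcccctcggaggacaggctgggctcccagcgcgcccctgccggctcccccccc
The Id2 window held 1 match to GGCGCC and 1 to GTCT, the Id3 window held 2 matches to GTCT, and the Msx2 window held 1. Neither motif was found in the Msx1 window. Of 32817 windows of the same length, 9.59% held GGCGCC and 82.9% held GTCT, with a median of 2 matches to the latter, so most windows hold the short element. No window was found for Bmp2, Bmp7 or Id1. All 9 genes are protein coding, and Id1 lies at chr2:152736251-152737410, Bmp2 at chr2:133552159-133562896 and Bmp4 at chr14:46383525-46390669 on the same build.

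The libraries held 3635 cells at MS-LS, 3994 at OB-EB and 3494 at EHF, with 17966956, 12181436 and 20376539 unique molecular identifiers (UMIs), each of which counts 1 captured RNA molecule. The median UMIs per cell were 4251, 2620.5 and 5584. Between 12 and 18 cell barcodes were shared by each pair of libraries. Cells were clustered within each library with the 9 genes and 46 other genes of the pathway held out, and a cluster was named "X-like" only from a marker list. Levels are given as UMIs per 1000000 UMIs of the cells concerned (CPM), with an exact Poisson 95% interval in brackets, and ratios as log2 with the exact 95% interval of the ratio of the UMI sums. Intervals cover counting error only and say nothing of the spread between embryos, since no stage was replicated and no test was made. Free RNA was measurable: at EHF the yolk sac globin Hbb-bh1 stood at 3362 CPM in blood-like cells and between 19.7 and 27.2 CPM in 6 other classes, and Ttr stood at 9849 CPM in visceral endoderm-like cells and between 38.2 and 67.2 CPM in the other classes.

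Of the ligands, Bmp4, Bmp5 and Bmp7 were higher at EHF than at either earlier stage over the whole library, and Bmp2 was lower. Bmp4 stood at 11.2 CPM (9.75 to 12.9) at MS-LS, 17.8 (15.5 to 20.3) at OB-EB and 36.5 (33.9 to 39.2) at EHF. Bmp5 was close to absent at first, with 6 UMIs in the whole MS-LS library, 28 at OB-EB and 158 at EHF, or 0.334, 2.30 and 7.75 CPM. Bmp7 stood at 5.90, 8.37 and 17.2 CPM, and Bmp2 at 29.0 (26.6 to 31.6), 28.1 (25.2 to 31.2) and 14.7 (13.1 to 16.4). The intervals of the 3 stages do not overlap for Bmp4, and those of Bmp2 overlap only between MS-LS and OB-EB.

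Of the targets, Id1, Id3 and Msx1 were highest at EHF, Id2 was highest at MS-LS, and Msx2 varied least. Id1 stood at 111 CPM at MS-LS, 75.4 at OB-EB and 173 at EHF, and Id3 at 237, 217 and 382. Msx1 stood at 25, 19.0 and 53.1 CPM. Id2 stood at 422, 257 and 387 CPM and Msx2 at 16.4, 20.9 and 22.8. OB-EB therefore had the lowest whole-library level of all 3 Id genes and of Msx1. For Msx1 this order rested on the classes sampled. Its log2 ratio for OB-EB over MS-LS went from -0.40 to 0.09 without the extraembryonic ectoderm, ectoplacental cone and endoderm classes.

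**Figure D1:**
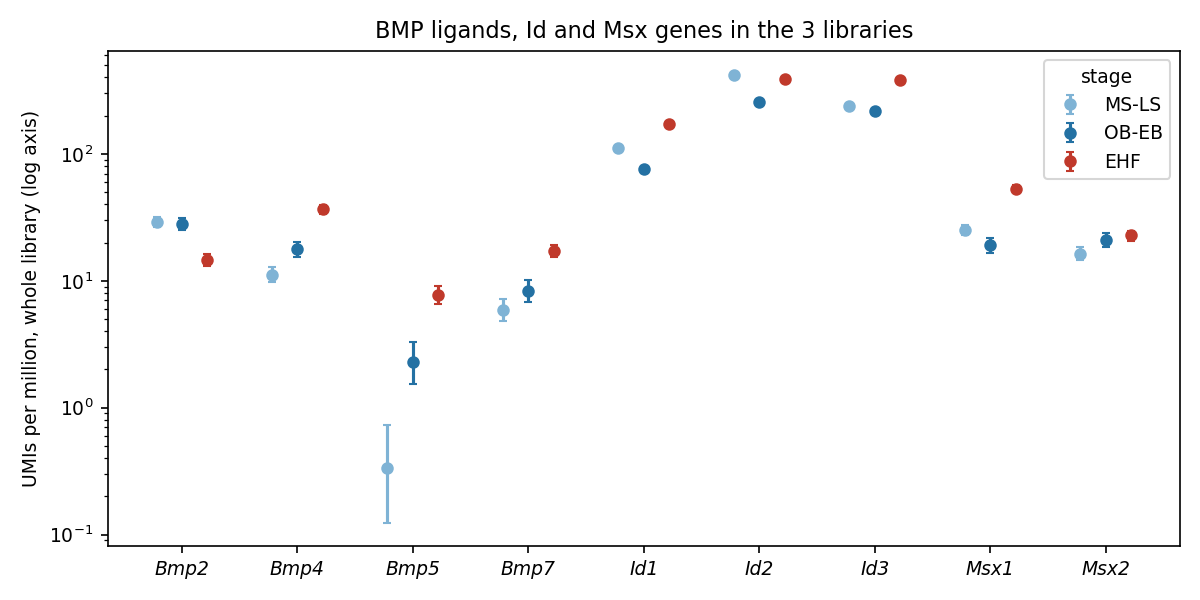
Level of each of the 9 genes in the 3 libraries, in CPM on a log axis. Points are whole libraries and bars are exact Poisson 95% intervals. Bmp5 runs from 0.334 at MS-LS to 7.75 at EHF, whereas Id2 stays between 257 and 422.

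A ratio was called when it was at least 2-fold and the gene had at least 20 UMIs over both groups. For EHF over MS-LS, 4 of 9 genes were called higher and 0 lower, against 16.9% of all 14306 genes called higher and 5.52% lower. These were Bmp5 (log2 4.54, 3.38 to 6.01), Bmp4 (1.70, 1.47 to 1.93), Bmp7 (1.55) and Msx1 (1.08), and the median of the 9 was 0.69 against 0.31 over all genes. For EHF over OB-EB, 5 of 9 were called higher and 0 lower, against 18.2% of all genes called higher and 7.10% lower: Bmp5 (1.75), Msx1 (1.48), Id1 (1.20), Bmp4 (1.04) and Bmp7 (1.04). For OB-EB over MS-LS only Bmp5 was called (2.78, 1.48 to 4.35), and it was higher, against 7.23% of all genes called higher and 4.73% lower. The ratios of Bmp2 at EHF, -0.98 over MS-LS and -0.94 over OB-EB, missed the 2-fold line. The pairs of stages share libraries, so these counts are not independent.

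Scaling moved some of these calls. Under the totals, the median over all genes was shifted by 0.31 for EHF over MS-LS and by 0.36 for EHF over OB-EB. With size factors these medians were 0.04 and 0.06. Msx1 over MS-LS then stood at 0.82, Bmp4 and Bmp7 over OB-EB at 0.73 and Id1 over OB-EB at 0.89, all short of 2-fold, and Bmp2 passed it, at -1.25 over MS-LS and -1.24 over OB-EB. With cells thinned to 1500 UMIs, Bmp4 and Bmp7 over OB-EB were again short of it, at 0.94 and 0.81. In whole libraries, fewer cells of a type and less RNA per cell cannot be told apart, so the levels are given next within cell classes.

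At every stage the 2 named classes with the most Bmp4 were the extraembryonic ectoderm-like and the extraembryonic mesoderm-like cells, and their order changed. In extraembryonic ectoderm-like cells it stood at 52.0 CPM (43.4 to 61.8) at MS-LS, 68.9 (53.0 to 87.9) at OB-EB and 82.5 (70.7 to 95.7) at EHF. In extraembryonic mesoderm-like cells it stood at 35.2 CPM (24.9 to 48.3), 98.0 (79.2 to 119.9) and 178 (158 to 201). The mesoderm-like class thus lay below the ectoderm-like class at MS-LS and above it at both later stages, and all 3 orders held beyond counting error. The ectoderm-like cells held 63.9% of the library's Bmp4 UMIs at MS-LS, 29.5% at OB-EB and 23.4% at EHF, and the mesoderm-like cells 18.8%, 43.3% and 36.4%. These shares also follow the number of cells sampled from each class, 382, 244 and 293 for the ectoderm-like and 253, 291 and 214 for the mesoderm-like. In epiblast-like cells Bmp4 stood at 1.14, 1.06 and 6.81 CPM, from 5, 3 and 3 UMIs, and the intervals of the 3 stages overlap.

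At EHF a further source of Bmp4 was an unnamed cluster of 152 cells led by Mesp1 and Cdx4, with 119 CPM (97.5 to 143) and 14.9% of the library's Bmp4 UMIs. Within the EHF extraembryonic ectoderm-like class the ligand was unequal. The cluster led by Eomes and Elf5 had 144 CPM (121 to 169), and the cluster led by Elf5 and Wnt7b had 24.9 (16.4 to 36.2). Id1 ran the other way, with 219 CPM (191 to 249) in the first and 374 (339 to 413) in the second, as did Id3, with 98.7 and 227 CPM.

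Among the named classes, the highest in Bmp2 was one of endothelium or endoderm at each stage. At MS-LS it stood at 220.3 CPM (174 to 276) in endothelium-like cells, where 50% of 70 cells had a UMI, and at 127 CPM (98.5 to 161) in definitive endoderm-like cells. At OB-EB no cluster was named endothelium-like. The highest named class as a whole was the definitive endoderm-like, with 119.8 CPM. Unnamed cluster 16, led by Lmo2 and Fli1, had 177 CPM (140 to 219.8). It lay above that class as a whole but below its cluster led by Spink1 and Dkk1, described next. At EHF endothelium-like cells had 117 CPM (89.8 to 149), parietal endoderm-like cells 73.3 (39.1 to 125), and cardiac crescent-like and extraembryonic mesoderm-like cells 51.4 and 51.3. The first of these EHF classes did not exceed the second beyond counting error. The definitive and visceral endoderm-like classes were lower at EHF, with 32.1 and 12.5 CPM. In epiblast-like cells Bmp2 stood at 2.74, 2.82 and 0 CPM.

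Both endoderm classes had less Bmp2 at EHF. Visceral endoderm-like cells had 55.8 CPM (47.5 to 65.1) at MS-LS, 62.0 (48.1 to 78.8) at OB-EB and 12.5 (8.32 to 18.1) at EHF, a log2 ratio of -2.16 (-2.79 to -1.57) for EHF over MS-LS and -2.31 over OB-EB. Definitive endoderm-like cells had 127, 119.8 and 32.1 CPM, a ratio of -1.98 (-2.93 to -1.14) for EHF over MS-LS. These classes were not uniform. The 3 visceral endoderm-like clusters at MS-LS had 29.2, 123 and 44.1 CPM, and the 2 definitive endoderm-like clusters at OB-EB had 203 CPM where Spink1 and Dkk1 led and 9.90 CPM (1 UMI) where Trh and Sox17 led. The MS-LS definitive endoderm-like cluster was led by Dkk1 and Kitl and the EHF one by Trh and Cpm, so the part of cluster composition in the fall of the definitive endoderm-like class cannot be told apart from stage. The level of the visceral endoderm-like class likewise depends on the mix of clusters sampled, and the part of that mix in its fall was not tested. Extraembryonic mesoderm-like cells kept to a narrow range, with 53.7, 46.9 and 51.3 CPM.

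**Figure D2:**
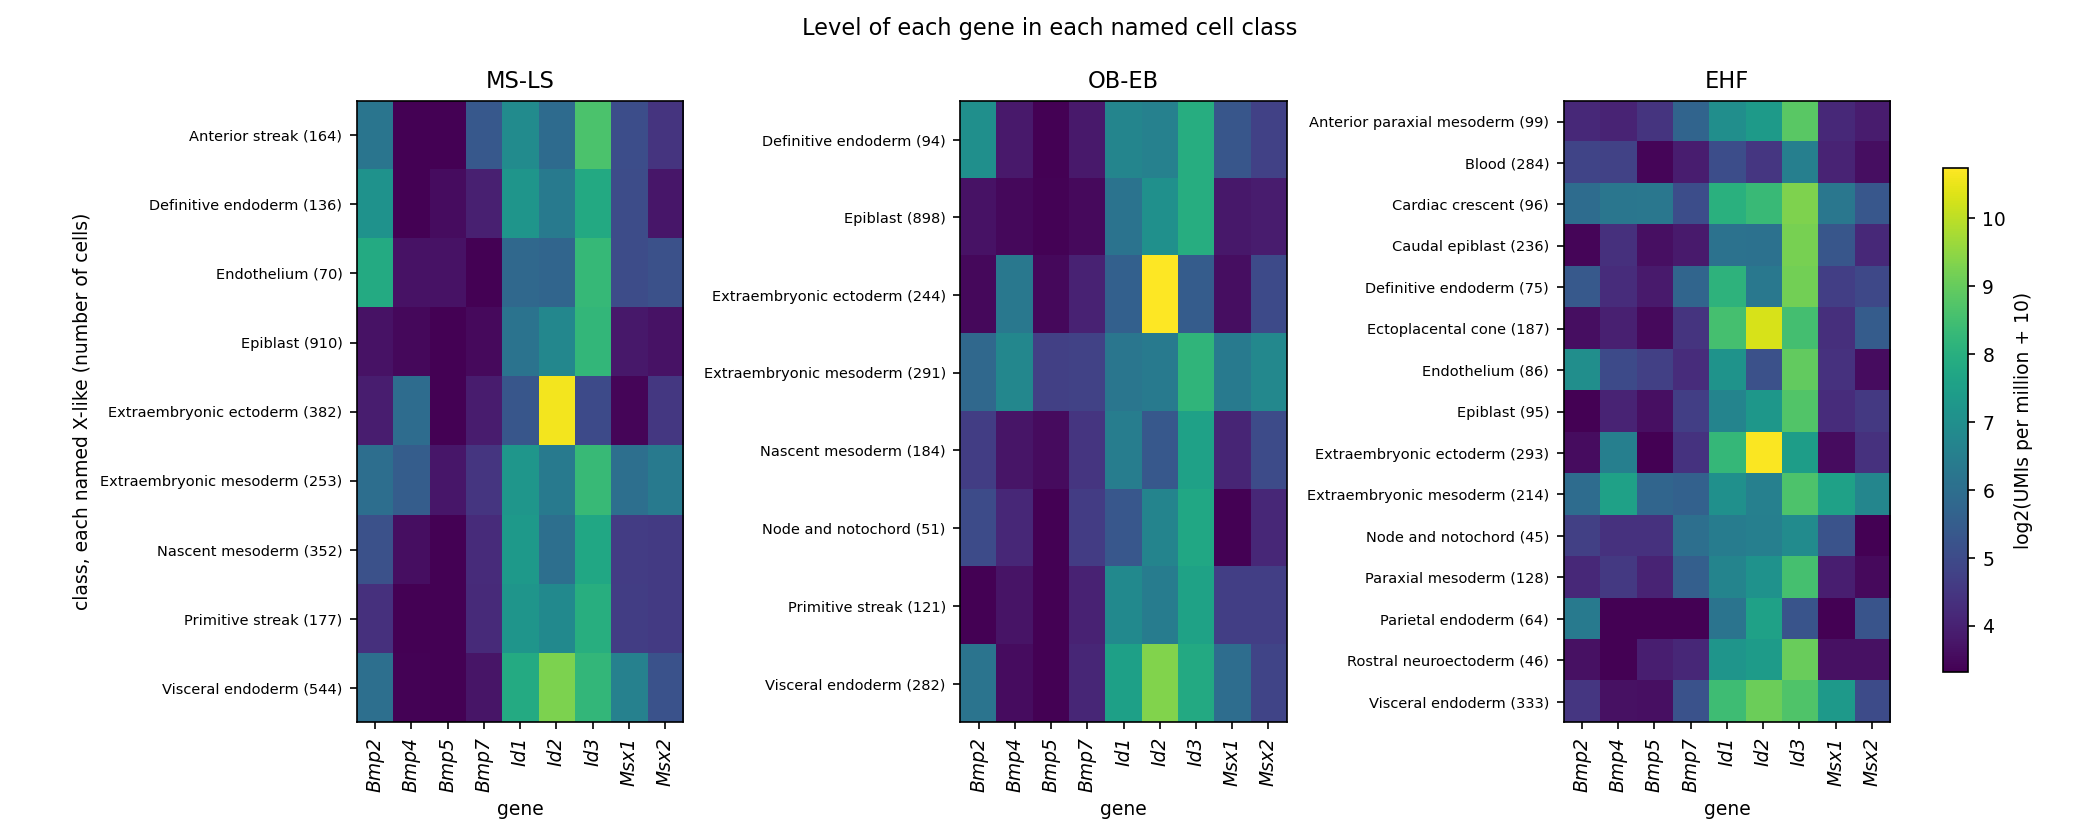
Level of each of the 9 genes in each named cell class at MS-LS, OB-EB and EHF, as log2(CPM + 10), with the number of cells of each class in brackets. The brightest cells are Id2 in extraembryonic ectoderm-like cells, between 1544 and 1703 CPM at the 3 stages, and the Id3 column is bright in most classes.

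Bmp5 had most of its UMIs in 1 class at the first 2 stages and in 2 classes at EHF. Extraembryonic mesoderm-like cells had 3.70 CPM (4 UMIs) at MS-LS, 16.7 (9.53 to 27.1) at OB-EB and 43.4 (33.6 to 55.2) at EHF, and held 66.7%, 57.1% and 41.8% of the UMIs of Bmp5 in their libraries. At EHF the highest class was the cardiac crescent-like, with 67.6 CPM (49.5 to 90.1) and 29.1% of the UMIs. As a whole, the extraembryonic mesoderm-like class lay below it beyond counting error (log2 0.64, 0.06 to 1.20). That class was not uniform in Bmp5, and its cluster led by Pmp22 and Acta2 was close to the crescent-like level. In extraembryonic ectoderm-like cells there were 0 UMIs at MS-LS and EHF and 1 at OB-EB.

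Among the named classes, Bmp7 had a clear leading class only at MS-LS. At MS-LS the anterior streak-like cells had 31.6 CPM (20.8 to 46.0), over 2 times the next class, extraembryonic mesoderm-like, with 12 (log2 1.40, 0.39 to 2.47). At OB-EB unnamed cluster 15, led by Sox17 and Shisa2, had 38.9 CPM (23.8 to 60.1), and the highest named class was the extraembryonic mesoderm-like, with 17.7 (10.3 to 28.4). That named class rested on the clustering. It was the definitive endoderm-like at a resolution of 2 and the node and notochord-like at a resolution of 8. At EHF the level was alike over 5 classes within counting error: node and notochord-like cells had 54.8 CPM, definitive endoderm-like 43.6, anterior paraxial mesoderm-like 42.6, extraembryonic mesoderm-like 39.5 and paraxial mesoderm-like 37.6. In visceral endoderm-like cells Bmp7 went from 3.46 CPM (1.66 to 6.37) at MS-LS to 7.41 at OB-EB and 26.4 (20.1 to 34.0) at EHF, opposite to Bmp2 in the same cells, with a log2 ratio of 2.93 (1.95 to 4.06) for EHF over MS-LS.

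Id2 was the most class-bound of the Id genes. In extraembryonic ectoderm-like cells it stood at 1544 CPM (1496 to 1594) at MS-LS, 1703 (1621 to 1789) at OB-EB and 1637 (1583 to 1693) at EHF, with a UMI in 97.6%, 92.6% and 99.0% of cells, and these cells held 50.4%, 50.5% and 43.8% of all Id2 UMIs. Ectoplacental cone-like cells at EHF had 1249 CPM, and the unnamed MS-LS cluster 12, led by Fabp3, had 1746. Visceral endoderm-like cells came next, with 615, 631 and 535 CPM. The low end was at EHF in endothelium-like cells, with 25.5 CPM, and blood-like cells, with 12.4.

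Id1 and Id3 differed from Id2 in the extraembryonic ectoderm-like cells, where both were low at first and high at EHF. Id1 stood at 29.4 CPM (23.1 to 37.0) at MS-LS, 38.7 (27.1 to 53.6) at OB-EB and 299 (276 to 323) at EHF, a log2 ratio of 3.34 (2.99 to 3.71) for EHF over MS-LS and 2.95 (2.46 to 3.47) for EHF over OB-EB. Id3 stood at 21.8 CPM (16.4 to 28.4), 34.4 (23.6 to 48.6) and 165 (148 to 183), a ratio of 2.92 (2.50 to 3.36) for EHF over MS-LS. Id2 in the same cells gave 0.08 (0.02 to 0.15). After each cell was thinned to 1500 UMIs, 5.79%, 6.01% and 29.8% of these cells had an Id1 UMI, and 2.37%, 6.44% and 20.9% an Id3 UMI. The larger part of the change lay between OB-EB and EHF, and the unthinned shares for Id1 ran from 16.2% and 12.7% to 68.6%. For OB-EB over MS-LS, Id3 gave a ratio of 0.66 (-0.02 to 1.32), and of 1.21 at a resolution of 8. Of blood-like cells at EHF, the class with the least Id1 at that stage, 3.76% had an Id1 UMI after thinning and 11.3% an Id3 UMI, at a median depth of 4905 UMIs against 7125.

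In this class 3 of the 6 genes with enough UMIs were called higher for EHF over MS-LS, against 10.3% of all genes, Bmp7 (1.23, 0.18 to 2.37) being the third. For EHF over OB-EB 2 of 6 were called higher, against 16.4%, and for OB-EB over MS-LS 0 of 5, against 4.14%. The unnamed MS-LS cluster 12, high in Id2, had 34.5 CPM of Id1 and 27.6 of Id3. At EHF the ectoplacental cone-like cells had 367 CPM of Id1 and 361 of Id3.

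Among the other named classes, apart from the ectoplacental cone-like, Id1 was highest in visceral endoderm-like cells, with 221 CPM (205 to 239), 175 (151 to 202) and 334 (310.4 to 359). In extraembryonic mesoderm-like cells it stood at 139.7, 64.6 and 121 CPM, lower at OB-EB than at MS-LS by a log2 ratio of -1.11 (-1.56 to -0.68), which was -0.90, short of 2-fold, at a resolution of 8. In endothelium-like cells it went from 46.4 CPM at MS-LS to 131 at EHF (1.5, 0.70 to 2.38). Id3 was broad, and at EHF it stood between 361 CPM, in ectoplacental cone-like cells, and 629, in cardiac crescent-like cells, in 11 of the 15 named classes. The 4 classes below that range were the parietal endoderm-like, with 28.2 CPM, the blood-like, with 81.8, the node and notochord-like, with 109.7, and the extraembryonic ectoderm-like, with 165. In definitive endoderm-like cells Id3 went from 216 and 235 to 560.1 CPM, a ratio of 1.37 (1.05 to 1.71) over MS-LS.

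Msx1 and Msx2 were both highest or close to highest in extraembryonic mesoderm-like cells. Msx2 stood there at 71.2 CPM (56.2 to 89.0) at MS-LS, 100.1 (81.1 to 122) at OB-EB and 95.4 (80.5 to 112) at EHF, and Msx1 at 55.5 (42.4 to 71.5), 73.0 (56.9 to 92.2) and 181 (160.1 to 204). Msx1 thus gave a log2 ratio of 1.70 (1.30 to 2.13) for EHF over MS-LS, whereas Msx2 gave 0.42 (0.01 to 0.84). The genes parted in visceral endoderm-like cells, where Msx1 stood at 85.6, 52.8 and 149 CPM and Msx2 at 26.3, 18.5 and 22.4. They parted the other way in extraembryonic ectoderm-like cells, where Msx1 had 2, 2 and 4 UMIs and Msx2 had 32, 20 and 23. At EHF an unnamed cluster of 103 cells led by Gap43, Wnt6 and Tfap2a had 162 CPM of Msx1 and 67.7 of Msx2, and the Mesp1 and Cdx4 cluster had 130.2 and 55.5.

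In extraembryonic mesoderm-like cells all 9 genes had enough UMIs to be compared. For EHF over MS-LS 4 of 9 were called higher, against 19.0% of all genes: Bmp5 (3.55, 2.13 to 5.47), Bmp4 (2.34, 1.85 to 2.87), Bmp7 (1.71, 0.83 to 2.70) and Msx1. For OB-EB over MS-LS, Bmp4 (1.48, 0.92 to 2.06) and Bmp5 (2.17, 0.54 to 4.21) were called higher, against 8.45% of all genes, and Id1 lower, against 4.72%. For EHF over OB-EB, Bmp5, Bmp7 and Msx1 were called higher, against 19.0%, and Bmp7 was short of 2-fold, at 0.99, with size factors. The median of the 9 was 0.42 for EHF over MS-LS, against 0.30 over all genes. The class was split at EHF into a cluster led by Pitx1 and Hoxb6 and one led by Pmp22 and Acta2. Bmp4 was near equal in them, with 167 CPM (139 to 199) and 189 (159 to 222), whereas Bmp7 stood at 58.9 and 20.7, Id1 at 182 and 62.1, Bmp5 at 21.4 and 64.6 and Bmp2 at 30.8 and 71.1.

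**Figure D3:**
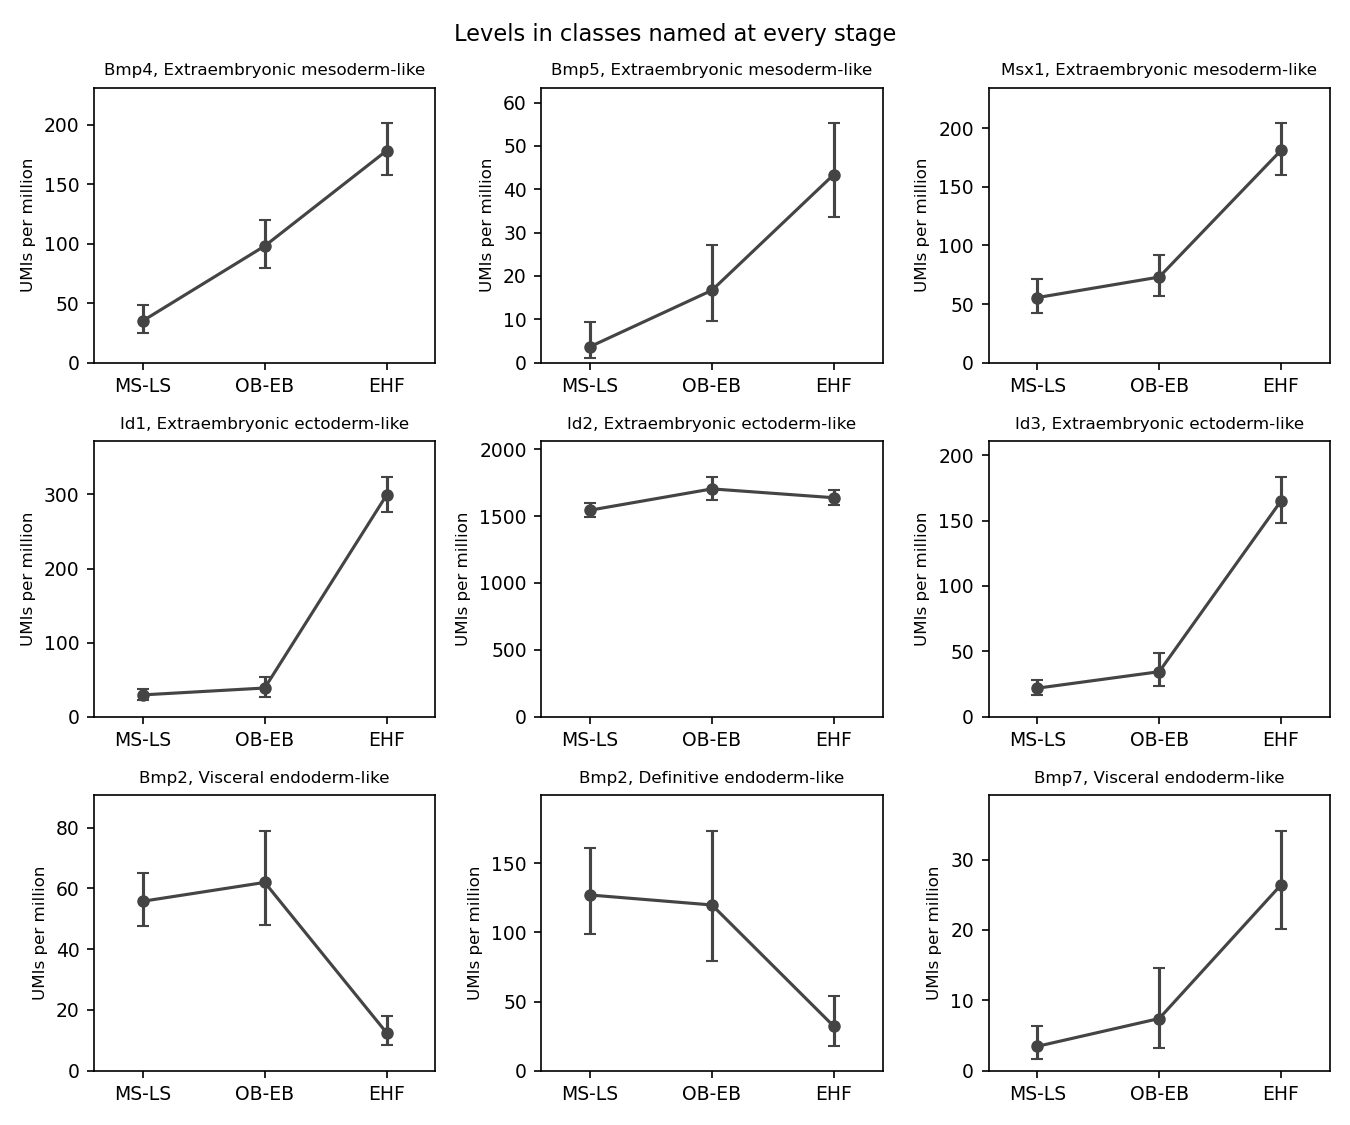
Levels of chosen genes in classes named at all 3 stages, in CPM, each panel from 0 on its own axis. Points are classes and bars are exact Poisson 95% intervals, and lines join the stages. Id1 and Id3 in extraembryonic ectoderm-like cells stay low at MS-LS and OB-EB and reach 299 and 165 at EHF, Id2 stays between 1544 and 1703, and Bmp2 in visceral endoderm-like cells drops from 62.0 to 12.5 between OB-EB and EHF.

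In visceral endoderm-like cells 7 genes could be compared. For EHF over MS-LS, Bmp7 was called higher, against 7.37% of all genes, and Bmp2 lower, against 6.01%. For EHF over OB-EB, Bmp7 (1.83, 0.76 to 3.11) and Msx1 (1.5, 1.09 to 1.93) were called higher, against 14.2%, and Bmp2 lower, against 6.16%. In definitive endoderm-like cells 5 genes could be compared. For EHF over MS-LS, Bmp7 (2.94, 1.17 to 5.34, from 3 and 19 UMIs) and Id3 were called higher, against 13.6%, and Bmp2 lower, against 10.7%. For EHF over OB-EB, Bmp7, Id1 (1.51, 0.85 to 2.24) and Id3 were called higher, against 23.5%, and Bmp2 lower, against 8.55%. That ratio of Bmp7 (3.35, 0.70 to 8.73) came from 19 UMIs against 1. It fell short of 2-fold, at 0.38 from 19 UMIs against 20, at a resolution of 2, and at 0.63 without the naming margin. Over the 19 sets of matched classes and stage pairs, 31 of 110 ratios with enough UMIs were at least 2-fold, or 28.2%. Of the ratios of all genes in the same sets, 18.7% were.

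The cardiac crescent-like cells of the EHF library had more of most of these genes than the paraxial mesoderm classes. The crescent-like class was 1 cluster of 96 cells led by Mef2c, Myl7 and Rgs5, with all 9 markers of its list present. Nkx2-5, an early heart transcription factor, stood there at 72.0 CPM, against 0 in the 128 paraxial mesoderm-like cells and 3.28 in the 99 anterior paraxial mesoderm-like cells. The marker list summed to 1285 CPM in crescent-like, 237 in paraxial, 421 in anterior paraxial and 326 in extraembryonic mesoderm-like cells. The last class also had all 9 markers, with Tbx20 at 88.8 CPM against 72.0 in crescent-like cells. Less exclusive were Myl7 (680 CPM, against 354 in anterior paraxial cells) and Smarcd3 (159, against 92.7 in paraxial cells). Against the paraxial class 7 of 9 genes were called higher and 0 lower, where 4.27% of all 6279 genes were called higher and 3.85% lower, and the median of the 9 was 2.27 against 0.00 over all genes. Against the anterior paraxial class 7 of 9 were again called higher and 0 lower, where 5.57% and 2.66% of all genes were, with a median of 2.56 against 0.02. Both counts use the same crescent-like cells and so are not independent.

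Among the ligands, Bmp5 stood at 67.6 CPM (46 UMIs) in crescent-like cells, 6.72 (5 UMIs) in paraxial and 11.5 (7 UMIs) in anterior paraxial cells, and Bmp4 at 64.6 CPM (44 UMIs), 13.4 (10) and 6.55 (4). Bmp2 stood at 51.4 CPM (35 UMIs), 8.06 (6) and 8.19 (5). The log2 ratios over the paraxial class were 3.33 (2.0 to 5.02) for Bmp5, 2.27 (1.25 to 3.42) for Bmp4 and 2.67 (1.41 to 4.21) for Bmp2. Bmp7 went the other way, with 23.5, 37.6 and 42.6 CPM and ratios of -0.68 (-1.66 to 0.26) and -0.86 (-1.85 to 0.09), neither called and both with intervals across 0. The order of Bmp7 over the paraxial class rested on the clustering, since it was 0.72 when the held-out genes were let into the clustering and 1.01 at a resolution of 2.

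Among the targets, the Msx genes gave the largest ratios. Msx1 stood at 66.1 CPM (45 UMIs) in crescent-like, 5.38 (4) in paraxial and 8.19 (5) in anterior paraxial cells, with ratios of 3.62 (2.16 to 5.56) and 3.01 (1.68 to 4.70). Msx2 had 21, 1 and 3 UMIs, with ratios of 4.52 (1.88 to 9.89) and 2.65 (0.91 to 5.04), so its size is poorly fixed. Id1 stood at 254, 92.7 and 116 CPM, with ratios of 1.45 (1.04 to 1.88) and 1.13 (0.72 to 1.55), and Id2 at 317, 129 and 156 CPM, with 1.30 (0.94 to 1.66) and 1.03 (0.67 to 1.39). Id3 was high in all 3 classes, with 629, 369.6 and 447 CPM, and its ratios, 0.77 (0.54 to 0.99) and 0.49 (0.27 to 0.72), missed the 2-fold line. Between the anterior paraxial and paraxial classes 0 of the 4 genes with enough UMIs were called, where 2.32% of all genes were called higher and 4.21% lower. This rested on the clustering. With the held-out genes let in, the ratio of Id2 went from 0.27 to 2.52 and that of Id3 from 0.27 to 1.34. At a resolution of 2 the ratio of Bmp7 went from 0.18 to 1.97.

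Markers of extraembryonic mesoderm moved with these genes. Their list of 7 summed to 361 CPM in crescent-like cells, 44.4 in paraxial, 57.3 in anterior paraxial and 1753 in extraembryonic mesoderm-like cells, with 5 of the 7 present in crescent-like cells and Tdo2 and Hoxb6 at 0. The list of 8 endothelial markers summed to 167 CPM in crescent-like cells against 32.3 and 50.8. Of these, Etv2 stood at 106 CPM in crescent-like cells, Kdr at 36.7, Lmo2 at 16.2 and Tal1 at 8.81, with Cdh5, Pecam1, Esam and Sox18 at 0. Elf5, a marker of extraembryonic ectoderm, stood at 2.94 CPM in crescent-like cells. Bmp5 was higher in the crescent-like than in the extraembryonic mesoderm-like cells as a whole, but close to its level in their cluster led by Pmp22 and Acta2. Bmp4, Msx1 and Msx2 were lower in the crescent-like cells (64.6 against 178, 66.1 against 181 and 30.8 against 95.4 CPM). The part of the other markers in these ratios was not tested. The median UMIs per cell were 6447.5, 5376.5 and 5928.

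**Figure D4:**
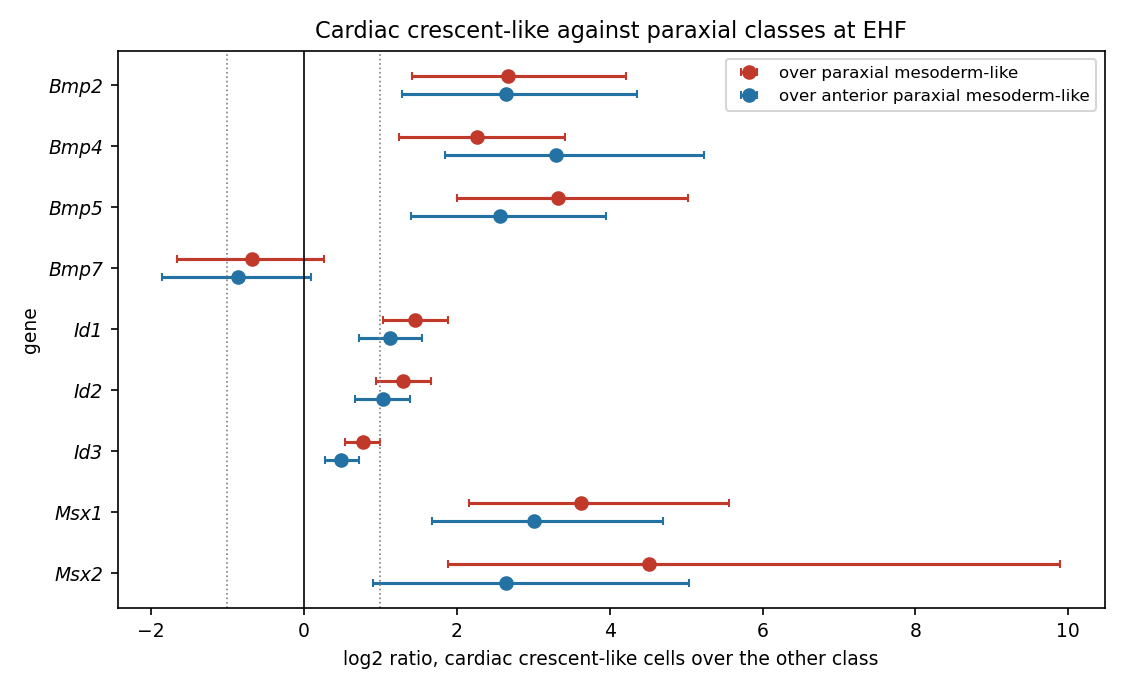
Log2 ratios of the 9 genes for the cardiac crescent-like cells of the EHF library over the paraxial mesoderm-like cells (red) and over the anterior paraxial mesoderm-like cells (blue). Bars are exact 95% intervals of the ratio of UMI sums, and dotted lines mark 2-fold. The points of Bmp7 lie left of 0, at -0.68 and -0.86, and those of Id3 lie between 0 and the 2-fold line.

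The study compared streak populations, and its cell identities were available for 36 anterior primitive streak (aPS) cells and 318 primitive streak cells at MS-LS and 252 primitive streak cells at OB-EB, all found in the libraries by barcode. These identities came from a clustering that used all genes, the 9 included, so the ratios are a description. Bmp2 had 13 UMIs in the aPS cells and 21 in the other MS-LS streak cells, or 78.8 and 10.0 CPM (log2 2.98, 1.86 to 4.04). Msx1 had 6 and 27 UMIs (1.5, -0.07 to 2.81), and these were the 2 called higher of 6 genes with enough UMIs, against 5.06% of all genes. With cells thinned to 1500 UMIs Msx1 had 1 and 5 UMIs and a ratio of 0.86, too few to be called. Msx2 had 0 UMIs in the aPS cells and 25 in the other streak cells. It was not called, since the aPS group is small and the upper limit of the ratio was 1.02. In OB-EB streak cells Bmp2 had 1 UMI, a ratio of -2.88 (-8.25 to -0.25) over MS-LS streak cells, the only 1 of 7 genes called, against 9.94% of all genes called lower. The Id genes gave ratios between -0.67 and -0.17 in that comparison, and Bmp4 and Bmp5 had at most 3 UMIs in any of the 3 populations. Between OB-EB streak and aPS cells 0 of 3 genes with enough UMIs, the Id genes, were called, against 21.7% of all genes in either direction. The other genes had too few UMIs to be called. Bmp2 had 1 UMI in OB-EB streak cells against 13 in aPS cells (-5.86, -11.27 to -3.13). Msx1 had 7 against 6 (-1.94, -3.74 to -0.09), Bmp7 had 9 against 3 (-0.58, -2.58 to 1.95) and Msx2 had 15 against 0.

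Of the other 46 genes of the pathway, Bmp3, Bmp10, Bmp15, Gdf2, Gdf5 and Gdf7 were in none of the tables. Over whole libraries 35 could be compared for EHF over MS-LS, of which 9 were called higher and 3 lower, against 16.9% and 5.52% of all genes, and their median was 0.19 against 0.31. The receptor Acvr2b went from 7.35 to 42.3 CPM (2.53, 2.26 to 2.80) and the co-receptor Rgma from 2.39 to 15.4 (2.68, 2.22 to 3.18). The others called higher were Bmp8a, Gdf6, Acvrl1, Nog, Chrdl1, Nbl1 and Dand5, each below 10 CPM at both stages. Called lower were Bmpr1b, Smad7, an inhibitory Smad (19.3 to 7.17 CPM, -1.43), and Cer1, a secreted antagonist (52.5 to 18 CPM, -1.55). For EHF over OB-EB 7 of 33 were called higher and 4 lower, against 18.2% and 7.10% of all genes, with a median of -0.04 against 0.36. The lower ones included Smad1 (89.2 to 33.8 CPM, -1.40). For OB-EB over MS-LS 3 of 31 were called higher and 2 lower, against 7.23% and 4.73%.

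Secreted antagonists, which bind ligands outside the cell, were high in some classes that also had much of a ligand. At EHF parietal endoderm-like cells, the class next to the highest in Bmp2, had 2573 CPM of Fst, 164 of Nog and 226 of Bmper. Node and notochord-like cells had 219 CPM of Chrd and 274 of Dand5. Their level of Bmp7 was the highest at that stage, but from 10 UMIs and within counting error of other classes. Not every antagonist went with a ligand: Fst at MS-LS was highest in primitive streak-like cells, with 236 CPM. Bmp2 stood at 10.4 CPM in those cells and Bmp4 had 0 UMIs. Cer1 stood at 757 CPM in the anterior streak-like cells of MS-LS, at 815 in OB-EB cluster 15 and at 420.1 in the definitive endoderm-like cells of EHF, classes in which Bmp7 was also among its highest. Bambi, a pseudoreceptor that dampens BMP signalling, was highest in extraembryonic mesoderm-like cells at MS-LS and EHF, with 102 and 120.3 CPM. In the cardiac crescent-like cells, 1 of 13 pathway genes was called higher than in the paraxial class and 3 lower, against 4.27% and 3.85% of all genes. The higher one was Bambi (91.0 against 29.6 CPM, 1.62, 0.90 to 2.4), and the lower ones were Fst (42.6 against 191 CPM, -2.16), Cer1 (8.81 against 76.6 CPM, -3.12) and Tcf12, an E protein bound by Id proteins (39.7 against 82.0 CPM, -1.05).

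Across the 32 named classes of at least 20 cells in the 3 libraries, the closest patterns on log2(CPM + 10) were sought among 5439 genes with Pearson's r, as a description of points that share libraries. Bmp4 was nearest to Ahnak (0.78), Hand1 (0.77) and St3gal5 (0.76), and Bmp5 to Tmem108 (0.83), Frmd6 (0.82) and Hand2 (0.81). Bmp2 was nearest to Actn1 (0.83), Flt1 (0.76) and Amot (0.73), and Bmp7 to Tln2 (0.77), Ctxn1 (0.72) and Ptch1 (0.72). Id2 was nearest to Lncenc1 (0.89), Sfmbt2 (0.88) and Fbxo21 (0.86), Id1 to Lsr (0.71), Scamp3 (0.70) and Rab9 (0.66), and Id3 to Mapk3 (0.78), Dguok (0.72) and Gtf2i (0.71). Msx1 was nearest to Dlk1 (0.86), Tbx3 (0.77) and Prdm6 (0.76), and Msx2 to Tbx20 (0.76), Tbx3 (0.75) and Foxf1 (0.68). Ahnak, Hand1, Hand2, Tbx20 and Foxf1 are also markers by which classes were named. Among the 9 genes themselves, the closest pairs were Bmp4 and Bmp5 (0.59), Msx1 and Msx2 (0.58), Id1 and Id3 (0.54) and Bmp5 and Bmp7 (0.53), while Id2 and Id3 gave -0.30.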

How the data were processed

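UMI counts of each gene in each cell were deposited by the authors, who prepared Chromium 3′ libraries and counted reads with Cell Ranger 3.0.2 against GRCm38 with the tdTomato and WPRE sequences added. Barcodes with fewer than 500 genes or 1000 UMIs, or a high mitochondrial share, had been removed, and the counts were not normalised. All deposited cells were used. The members and every gene and marker list were chosen with earlier results of these data known.

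Cells were clustered within each library with Seurat 5.3.0 in R 4.3.3 (log-normalisation to 10000, 2000 variable genes, 50 principal components, resolution 4.5), with 55 genes held out. A cluster was named from 24 marker lists when at least 3 markers were detected (a UMI in 20% of its cells and 2 times the level of the other cells) and the best list led the next by 0.2 on the log2 scale. Other clusters stayed unnamed and are given by number. Names were rebuilt and can differ from the study's. Scrublet (scanpy 1.11.5) called 6, 0 and 13 doublets, too few for the caller to have worked, so none were removed.

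UMIs were summed over cells in Python 3.11.15 (scipy 1.17.1). No statistical test was made, as each stage was 1 library. Named genes were the 9 members, the pathway genes called in a comparison or reaching 100 CPM in a class, and the 3 genes most alike to each member among those with 200 UMIs in all and 50 CPM in a class. Streak cells were identified by barcode from the study's source data. Calculations were tested on simulated counts.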

Additional observations from a re-analysis of the deposited data

How the results depend on the processing

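Over whole libraries 37.0% of the 27 ratios were at least 2-fold, and between 29.6% and 40.7% over the alternatives. In matched classes the share was 28.2% (26.4% to 35.4%), against 18.7% of all genes. In the heart field classes it was 63.6% (59.3% to 82.6%), against between 6.53% and 8.23% of all genes by comparison. In the streak populations it was 18.8% (3 of 16), near the share of all genes, which was between 14.3% and 21.7% by comparison. It was 14.3% (2 of 14) when the highest doublet scores were left out. With size factors it was 31.2% (5 of 16) and with cells thinned to 1500 UMIs 33.3% (3 of 9), and the cause was not tested. Of the single ratios recomputed, 1221 stayed within their counting interval, 76 moved past it, and 0 that had been called changed sign. The 1221 include 175 from the setting without a filter on low counts, which could not move. Without the extraembryonic ectoderm, ectoplacental cone and endoderm classes, Bmp4 for EHF over MS-LS went from 1.70 to 2.75, Id1 from 0.64 to 0.15 and Id2 from -0.13 to -0.62, and Id1 for EHF over OB-EB went from 1.20 to 0.73. Over the paraxial class, Id2 in crescent-like cells went from 1.30 to as high as 3.65 and Id3 from 0.77 to 1.89 with the held-out genes let in, and over the anterior paraxial class Id2 went from 1.03 to 0.94 at a resolution of 2. The highest named class of a gene was the same in 24 to 26 of 27 cases under each alternative that could change it, and Bmp7 at OB-EB was the gene that changed most often. No paired analysis was possible because each stage was 1 library. Counts of Bmp5, Bmp7 and Msx2 limit what can be said of small classes.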
